A study of Mus musculus with 2 samples.

Results

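Lipid-associated macrophages are tissue macrophages that have taken up lipid, and 9 genes commonly used to recognise them were followed here through 2 tumour samples: Trem2, Spp1, Gpnmb, Fabp5, Lpl, Cd36, Cd9, Lgals3 and Hmox1. The genes were taken by symbol, and all 9 were found among the 32285 features of the count matrices. The tissue was tumour grown from MC38 cells, an established line from a mouse colon adenocarcinoma, and single cells were profiled with a 10x Genomics 3' droplet kit. There was 1 library of a tumour sample labelled Mbtps1 WT, called control here, and 1 labelled Mbtps1 KD, called knockdown here, which the series text describes as a knockout. Mbtps1 encodes site-1 protease, which activates the lipid-sensing SREBP transcription factors. Both groups share the MC38 line and the tumour tissue. The mouse strain, the age, the number of tumours behind a library, and the means by which Mbtps1 was altered and in which cells, are not stated in the labels.

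TREM2 is a surface receptor for lipids and lipoproteins that signals through the adaptor TYROBP, and macrophages that take up lipid in fat tissue, arteries and tumours raise it together with genes for lipid uptake and lysosomal breakdown. CD36 takes up fatty acids and oxidised lipoprotein, LPL frees fatty acids from triglyceride outside the cell, and FABP5 carries them inside it. GPNMB is a membrane protein of stressed lysosomes, SPP1 (osteopontin) is a secreted ligand of CD44 and of integrins, and galectin-3 (Lgals3), the tetraspanin CD9 and the haem-degrading enzyme HMOX1 complete the set.

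With 1 library per group, no difference given here has a replicate check. Levels are CPM, a gene's UMIs (molecular tags that let each captured RNA be counted once) per 1000000 UMIs of all cells of a class in a library, and each UMI counts the 3' end of a molecule, so CPM needs no scaling by gene length. Intervals are 95% intervals for counting error only. The control library held 177399315 UMIs and 10980 kept cells, and the knockdown library 174190399 UMIs and 15561 kept cells, with medians of 8229.5 and 5074 UMIs per cell. Both cell numbers are above the about 6000 cells loaded and the about 3000 targeted per the labels, and 45 cell barcodes occurred in both libraries. Whether the shallowest of these barcodes are whole cells was not tested, so shares of cells hold for the barcodes kept here. In tumour-like cells Mbtps1 itself was at 28.8 CPM in the control library against 12.3 CPM in the knockdown library (ratio 0.426, interval 0.399 to 0.456), and it was at 19.4 and 19.3 CPM in macrophage/monocyte-like cells. Clusters of cells were first split by their level of Xist RNA, and only those low in it could be named tumour-like. Classes were then named from marker genes, hence the ending -like. The macrophage/monocyte-like class held 4792 control cells (43.6% of kept cells, median 6066.5 UMIs) and 5092 knockdown cells (32.7%, median 3714.5 UMIs). All 20 macrophage/monocyte markers were above 20 CPM there in both libraries. Tumour-like cells numbered 4458 and 7405.

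Promoter sequences are shown for Trem2, Spp1 and Gpnmb, the 3 members whose detection in the same cell is described further on. They run from 120 bases before to 30 bases after the annotated transcription start, 5′ to 3′ on the strand of the gene, from RefSeq on GRCm38.p6, and capitals mark a match to a searched motif. Trem2 lies at chr17:48346281-48346430, Spp1 at chr5:104434991-104435140 (the first of 2 annotated starts) and Gpnmb at chr6:49036398-49036547, all on the plus strand.
Trem2: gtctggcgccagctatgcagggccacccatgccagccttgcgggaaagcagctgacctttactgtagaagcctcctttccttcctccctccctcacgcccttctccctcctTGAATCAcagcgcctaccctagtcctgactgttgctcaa
Spp1: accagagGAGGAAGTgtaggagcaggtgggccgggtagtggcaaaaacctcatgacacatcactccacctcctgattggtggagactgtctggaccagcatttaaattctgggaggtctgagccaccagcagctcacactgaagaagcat
Gpnmb: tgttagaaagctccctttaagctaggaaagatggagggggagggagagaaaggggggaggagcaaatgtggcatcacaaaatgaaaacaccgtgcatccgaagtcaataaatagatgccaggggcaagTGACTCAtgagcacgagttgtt
The searched AP-1 pattern, TGANTCA, is a loose one, since N allows any base in the middle. The Trem2 promoter has a match with A there (TGAATCA), beginning 9 bases before the start. The Gpnmb promoter has one with C there (TGACTCA), beginning at base 9 of the transcript. Spp1 has the letters of a PU.1 motif (GAGGAAGT), the motif of the main macrophage transcription factor, beginning 113 bases before the start. The same search covered the whole RefSeq windows of 300 bases on both strands. RefSeq windows were matched for 6 of the 9 members, without Fabp5, Lpl and Hmox1. The loose AP-1 pattern was in 2 of these 6 (Trem2 and Gpnmb) and in 7.81% of all 32851 promoters. PU.1 letters were in 1 of 6 (Spp1) and in 3.20% of all. The E-box CATGTG was in 1 of 6 (Cd9) against 14.2%, and the E-box CACGTG in 0 of 6 against 7.15%.

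The members differed in how closely they kept to macrophages. Trem2, the lipid receptor, was nearly confined to the macrophage/monocyte-like class, which held 96.4% of its UMIs among all control cells and 94.6% among knockdown cells. Its level there was 591 CPM in control and 436 CPM in knockdown. In the other 10 classes it stayed below 30 CPM in both libraries, apart from control neutrophil-like cells with 107 CPM, which came from 14 UMIs in 2 cells.

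Spp1 was spread over 4 classes. It had 621 and 666 CPM in macrophage/monocyte-like cells, 1602 and 947 CPM in NK-like cells, 856 and 1126 CPM in fibroblast-like cells and 697 and 607 CPM in neutrophil-like cells, control first. The order of these classes is therefore not the same in both libraries, with NK-like cells first in control and fibroblast-like cells first in knockdown. Few cells carried much of it, in macrophages as well as elsewhere. Of the NK-like cells, 8 of 269 control and 7 of 483 knockdown cells held 50% of the class's Spp1 UMIs. Of the macrophage/monocyte-like cells, 200 of 4792 and 172 of 5092 did. A single control fibroblast-like cell had 566 of 1205 UMIs (47.0%). Macrophage/monocyte-like cells still held 79.9% and 79.2% of all Spp1 UMIs.

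Most Gpnmb molecules came from tumour-like cells, which held 71.4% of its control and 76.4% of its knockdown UMIs. As levels the classes were closer, at 53.8 and 74.8 CPM in macrophage/monocyte-like cells and 47.9 and 56.5 CPM in tumour-like cells. Empty droplets, which carry free RNA, had 41.5 and 58.8 CPM of Gpnmb. In T-like cells, where the gene is not expected, it was at 9.29 and 10.8 CPM. Epidermis-like cells had 102 and 72.2 CPM. Neutrophil-like cells had 107 and 114 CPM, but 1 cell in each library held 8 of the 14 control and 15 of the 29 knockdown UMIs. In macrophages Gpnmb was detected in 9.54% of control and 10.8% of knockdown cells, and 63 and 85 cells held 50% of its UMIs.

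The lipid transport genes had further sites of expression. Lpl was highest in fibroblast-like cells, with 269 and 209 CPM and detection in 60.0% and 49.7% of cells, against 14.7 and 25.2 CPM in macrophage/monocyte-like cells. Cd36 was highest in endothelial-like cells (413 and 244 CPM), which use it to take up fatty acids, and had 44.6 and 50.2 CPM in macrophage/monocyte-like cells. Fabp5 was broad, with 1592 and 542 CPM in epidermis-like cells, 576 and 505 CPM in dendritic-like cells, 540 and 521 CPM in macrophage/monocyte-like cells and 29.4 and 32.2 CPM in NK-like cells.

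Of the last 3 members, Lgals3 was highest in macrophage/monocyte-like cells in both libraries (2541 and 2054 CPM) and had its lowest level in pericyte/smooth muscle-like cells (110 and 106 CPM). Empty droplets held Lgals3 at 898 and 675 CPM and Fabp5 at 332 and 210 CPM, so low levels of either gene in a class cannot be told apart from free RNA. Cd9 was highest in neutrophil-like cells at 1339 and 1072 CPM and had 169 and 154 CPM in macrophage/monocyte-like cells. Hmox1 had 417 and 340 CPM in macrophage/monocyte-like cells and at most 122 and 201 CPM elsewhere, both in neutrophil-like cells.

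**Figure D1:**
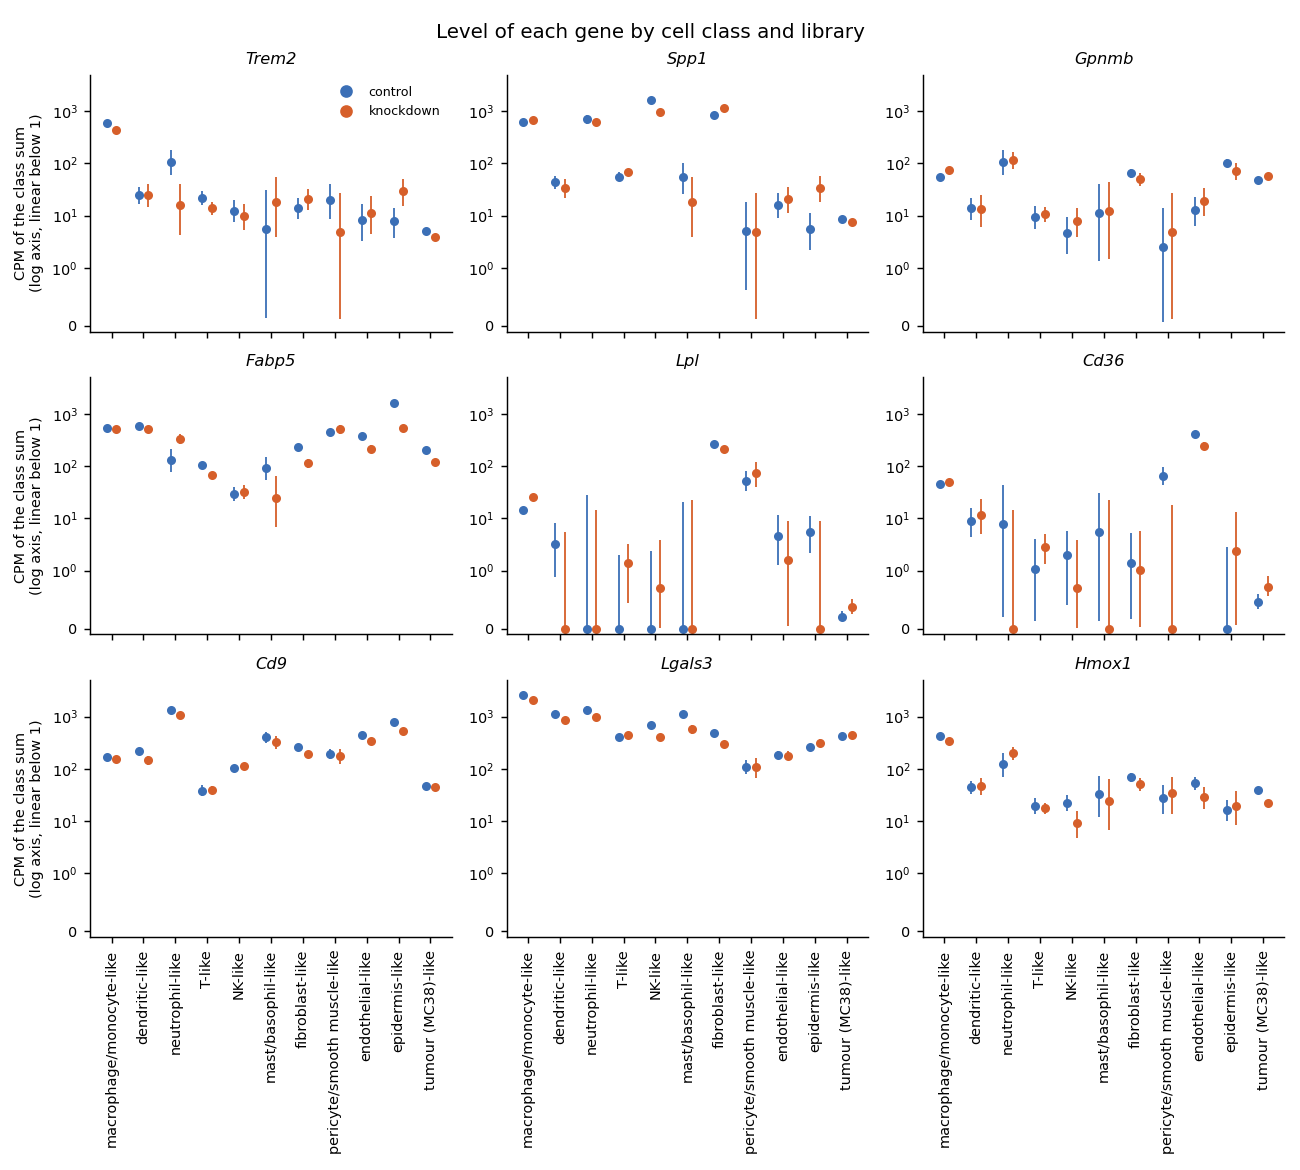
CPM of each of the 9 genes (log axis, linear below 1) in 11 cell classes, with control in blue and knockdown in orange, and 95% Poisson intervals as bars. Trem2 stands at 591 and 436 CPM in the macrophage/monocyte-like class and far lower elsewhere. Lpl and Cd36 have no UMI in some classes of a library, while UMIs of the remaining genes, Trem2 included, occur in every class.

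Between the libraries, the macrophage members went in different directions. Trem2, Lgals3, Hmox1 and Cd9 were lower in the knockdown and Gpnmb, Lpl, Cd36 and Spp1 higher, while the direction of Fabp5 changed between settings. The ratios of Spp1 and Cd36 came close to 1 in some settings, with lowest values of 1.016 and 1.0015 over 12 alternatives. None of the 8 members that met the minimum for a call (50 UMIs over both libraries and 50 CPM in at least 1) reached a 1.5-fold difference in either direction. Among all 3187 genes that met it, 1.0% (32 genes) were at least 1.5 times higher and 0.282% at least 1.5 times lower in the knockdown. The median log2 ratio of the 9 members was −0.05, beside 0.06 over 14290 genes with at least 20 UMIs.

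The receptor gene Trem2 had 18393 control and 9193 knockdown UMIs in macrophage/monocyte-like cells, and its ratio of knockdown over control CPM was 0.737 (0.719 to 0.756). Free RNA held more Trem2 in the control too, with 184 CPM in control and 108 CPM in knockdown empty droplets. The share of this class with a Trem2 UMI was 80.4% and 61.2%, at unequal depths. With 10% free RNA subtracted from the sums the ratio was 0.743.

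Lgals3, whose protein binds sugars on damaged lysosomes, had 79065 and 43330 UMIs and a ratio of 0.808 (0.799 to 0.818). Hmox1 had 12978 and 7178 UMIs and a ratio of 0.816 (0.792 to 0.840). Cd9 was the least different of these, at 0.909 (0.869 to 0.949). All 4 genes, Trem2 included, kept a ratio below 1 in each of 12 alternative ways of computing it.

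Gpnmb had 1675 control and 1577 knockdown UMIs at a ratio of 1.39 (1.30 to 1.49), and Spp1 had 19306 and 14043 UMIs, a ratio of 1.07 (1.05 to 1.10). Gpnmb passed the fold of 1.5 in 2 alternatives. These compared cells of 4000 to 8000 UMIs (1.55) or gave each subcluster the same weight in both libraries (1.55). The summed level of 18 tumour-cell markers in this class was 1820 CPM in control and 2593 CPM in knockdown, a ratio of 1.42, and the summed T-cell markers were 78.8 and 116 CPM. Their part in the Gpnmb ratio was not tested. Without subclusters 1 and 16, the myeloid subclusters whose leading genes include a dendritic-cell or T-cell gene, the Gpnmb ratio was 1.48.

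Lpl had the largest ratio of the 9, 1.71 (1.51 to 1.95), but at 14.7 and 25.2 CPM it lay under the minimum for a call. Its 457 control and 531 knockdown UMIs were concentrated, as 40 and 21 cells held 50% of them. Cd36 had a ratio of 1.13 (1.04 to 1.22). Fabp5 had a ratio of 0.964 (0.941 to 0.988) that turned to 1.15 among cells of 4000 to 8000 UMIs, so no direction can be given for it.

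**Figure D2:**
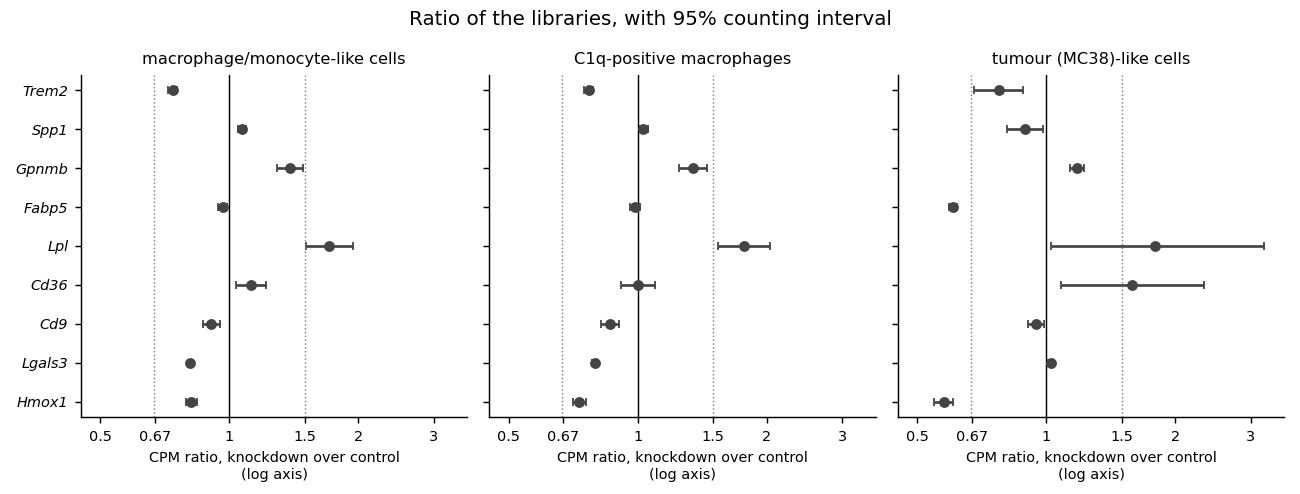
Ratio of knockdown over control CPM for each gene (log axis, points with 95% counting intervals) in macrophage/monocyte-like cells, in the C1q-positive cells among them and in tumour-like cells, with dotted lines at the fold of 1.5 either way. Trem2, Lgals3 and Hmox1 lie left of 1 and Gpnmb and Lpl right of 1 in the macrophage panels, while Fabp5 and Hmox1 are the low points among tumour-like cells.

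In tumour-like cells Fabp5 and Hmox1 had the lowest ratios of the 9 genes. Fabp5 was at 201 and 122 CPM, control first, which makes a ratio of 0.606 (0.592 to 0.619). Each of the 8 tumour clusters had an interval under 1 for it, with ratios of 0.551 to 0.743. It was the 1 of 3 members meeting the call minimum that passed the fold, where 2.56% of 3245 genes were at least 1.5 times lower and 2.68% at least 1.5 times higher. Fabp5 was also lower in epidermis-like (0.340), fibroblast-like (0.495), endothelial-like (0.566), T-like (0.642) and dendritic-like cells (0.876). In mast/basophil-like cells its ratio was 0.265, from 17 and 4 UMIs. Its ratio was above 1 in neutrophil-like (2.54), pericyte/smooth muscle-like (1.14) and NK-like cells (1.10). The pericyte/smooth muscle-like (0.884 to 1.46) and NK-like (0.710 to 1.69) intervals hold 1. Hmox1 had 39.0 and 22.5 CPM, a ratio of 0.576 (0.547 to 0.607), below the call minimum. Empty droplets held more of both genes, with 332 and 210 CPM of Fabp5 and 138 and 80.6 CPM of Hmox1. With 10% free RNA subtracted the tumour-like ratios were 0.601 for Fabp5 and 0.573 for Hmox1. The Hmox1 ratio was 0.410 in NK-like and 0.547 in endothelial-like cells. In dendritic-, neutrophil-, pericyte/smooth muscle- and epidermis-like cells it was above 1, but each interval there holds 1. The part of free RNA in these ratios was not tested. In 7 of the 8 tumour clusters Hmox1 was lower beyond its interval, while cluster 23, led by interferon-induced genes, had 46.1 and 66.7 CPM (1.45).

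Gpnmb was slightly higher in knockdown tumour-like cells, with a ratio of 1.18 (1.14 to 1.23) and an interval above 1 in 6 of 8 clusters. Lgals3, lower in macrophages, had 433 and 444 CPM in tumour-like cells, a ratio of 1.02 (1.01 to 1.04), and its cluster ratios ran from 0.803 to 1.44. Trem2 (5.06 and 3.91 CPM) and Spp1 (8.59 and 7.67 CPM) came to 0 in tumour-like cells once 10% free RNA was subtracted.

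Within the myeloid cells, 17 subclusters were compared. Members helped to form them, so their levels across subclusters are a description. Subcluster 7 (499 cells, led by Mmp12, Adm and Npy) had the highest level of 7 of the 9 members over both libraries: Spp1 at 1805 CPM, Fabp5 at 1690, Gpnmb at 384, Cd36 at 306, Cd9 at 409, Lgals3 at 6421 and Hmox1 at 2383 CPM. Trem2 was not highest there. It had 496 CPM in subcluster 7, 886 CPM in subcluster 6 (753 cells, led by Pf4, Fabp5 and Spp1) and 761 CPM in subcluster 2, whose leading genes include Hdac9 and Fcrls.

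Lpl followed another course, with 291 CPM in subcluster 12 (250 cells, led by Retnla, Cd209f and Lyve1, genes of macrophages that line vessels and connective tissue) and 86.5 CPM in subcluster 7. Spp1 and Gpnmb were low in subcluster 12, at 38.2 and 11.4 CPM, whereas Hmox1 had 937 CPM there. The low end was subcluster 15 (130 cells, led by Lipg, Sox5 and Fcrl5) for 7 members, among them Spp1 at 9.71 CPM. Trem2 was lowest in subcluster 9 (456 cells, led by Adgre4 and Ace, genes of patrolling monocytes) at 76.8 CPM.

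Trem2 and Lgals3 had ratios below 1 in each of the 17 subclusters, which come from the same 2 libraries and are not repeats of each other. Lgals3 had an interval below 1 in 17 of 17, with ratios of 0.546 to 0.930. Trem2 had a ratio below 1 in 17 of 17 and an interval below 1 in 14, with ratios of 0.563 to 0.956. Empty droplets also held less of both genes in the knockdown (Trem2 184 and 108 CPM, Lgals3 898 and 675 CPM, control first). The part of free RNA in the subcluster ratios was not tested. Hmox1 was below 1 by its interval in 10 and above in 2.

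Gpnmb, Spp1 and Fabp5 were less uniform. Gpnmb had an interval above 1 in 8 and below 1 in 2 subclusters, Spp1 above in 5 and below in 2, and Fabp5 above in 6 and below in 5. In subcluster 7, Lpl was at 45.5 and 151 CPM, control first (ratio 3.32, 2.50 to 4.45). Gpnmb went there from 328 to 473 CPM (1.44), Fabp5 from 1483 to 2015 CPM (1.36) and Trem2 from 543 to 422 CPM (0.776). In subcluster 2, Hmox1 had 350 and 181 CPM (0.517), while Gpnmb (1.63) and Spp1 (1.37) were higher in the knockdown.

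**Figure D3:**
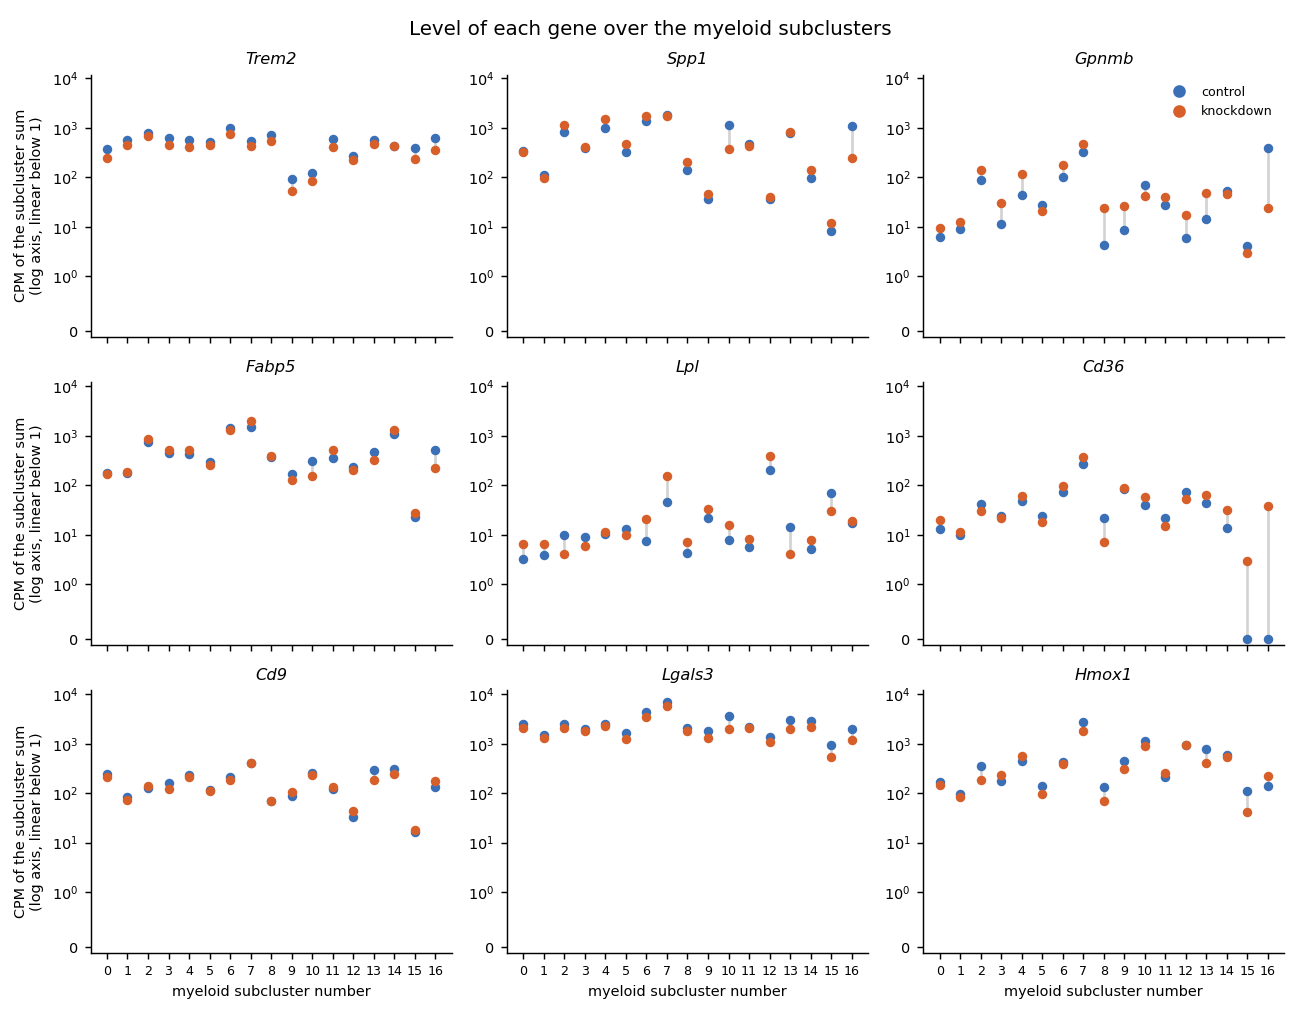
CPM of each gene (log axis, linear below 1) in 17 myeloid subclusters by number, control in blue and knockdown in orange, joined by a grey line. Knockdown points lie under control points for Lgals3 and Trem2 in 17 of 17 subclusters, and subcluster 7 is the high point for Spp1, Gpnmb, Fabp5, Cd36, Cd9, Lgals3 and Hmox1.

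Across the 17 subclusters (both libraries summed, log2(CPM + 1)), Fabp5, Spp1, Cd9 and Lgals3 followed each other. Pearson's r was 0.85 between Cd9 and Lgals3, 0.79 between Spp1 and Gpnmb and 0.44 between Trem2 and Spp1, while Lpl ran against Cd9 (−0.38), Spp1 (−0.33) and Trem2 (−0.32). The subclusters share 2 libraries and were formed from these genes among others. Of 4915 genes compared, the nearest to Trem2 were Tmem37 (0.95), Tmem119 (0.94) and the fatty acid transporter gene Slc27a1 (0.94). The nearest to Spp1 were Nt5e (0.89), the scavenger receptor gene Msr1 (0.88) and Tent5c (0.85), and to Gpnmb the neuropeptide gene Npy (0.90), Iqsec1 (0.86) and Eaf1 (0.85).

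Co-detection was followed in C1q-positive macrophages, the macrophage/monocyte-like cells with at least 3 UMIs of C1qa, C1qb and C1qc, which encode the recognition unit of complement. They numbered 4115 in control (85.9% of the class, median 6525 UMIs) and 3825 in knockdown (75.1%, median 4363 UMIs). To even out depth, each cell was thinned to 2000 UMIs, which left out 117 control cells (2.84%) and 346 knockdown cells (9.05%). That left 3998 and 3479 cells.

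In these thinned cells Lgals3 was found in 89.8% (interval 88.8 to 90.7) of control and 87.5% (86.4 to 88.6) of knockdown macrophages, and Trem2 in 65.9% (64.4 to 67.4) and 56.0% (54.3 to 57.6). Fabp5 was found in 35.8% and 34.9%, Spp1 in 31.8% and 31.1%, Hmox1 in 31.3% and 27.0% and Cd9 in 23.6% and 21.6%. The rarer members were Gpnmb at 5.08% (4.42 to 5.80) and 7.99% (7.11 to 8.94), Cd36 at 5.18% and 5.69% and Lpl at 1.98% and 2.13%. Trem2 was thus found in fewer and Gpnmb in more of the knockdown macrophages, and the Spp1 shares differed by less than their counting intervals.

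Unthinned, the shares were 87.5% and 74.0% for Trem2, 46.7% and 39.2% for Spp1 and 9.99% and 11.5% for Gpnmb. T-like cells were thinned in the same way for comparison. They are not known for Trem2 or Gpnmb, whereas activated T cells can make Spp1, and in the control 4 of them held 50% of the 101 Spp1 UMIs. They held a UMI of Trem2 in 4.16% and 2.43%, of Spp1 in 4.68% and 7.41% and of Gpnmb in 1.56% and 1.35%. Their median depths were 3421 and 2835.5 UMIs.

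Macrophages with Trem2, Spp1 and Gpnmb together were rare. There were 98 of 3998 in control (2.45%, 1.99 to 2.98) and 130 of 3479 in knockdown (3.74%, 3.13 to 4.42). The product of the 3 single shares is 1.07% in control and 1.39% in knockdown, so cells with all 3 were 2.30 and 2.69 times as frequent as that product. Another random thinning gave 2.55% and 3.28%, with overlapping intervals, and unthinned cells gave 7.10% and 7.16%. The knockdown share was the higher one in each of 7 alternatives, but these reuse the same cells and are not repeats. The intervals of the libraries overlapped in all of them except the one asking for at least 10 C1q UMIs (1.79 to 2.76 and 2.93 to 4.23). The size of the difference changed with the draw and with depth.

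Of the T-like cells deep enough to thin (385 of 529 in control and 742 of 1660 in knockdown), 0 held all 3 genes, which allows shares of up to 0.779% and 0.404% (3 counts of the total). Among thinned tumour-like cells 0 of 4393 and 1 of 6552 held them. Within the C1q-positive macrophages the cells with all 3 were most frequent in subcluster 7, at 11.7% of 196 control and 21.2% of 137 knockdown cells. Subcluster 6 had 5.26% and 12.3%, and subcluster 2 had 5.25% and 9.76%. Members helped to form the subclusters, so these shares are a description.

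Pairs of members were compared with the product of their single shares. Of the 36 pairs, 33 in control and 35 in knockdown were found together more often than that product. The median ratio of observed share to product was 1.13 and 1.20, and some ratios were barely above 1, as for Trem2 with Lgals3 in control (1.01). Pairs of other genes were not computed, so these counts cannot be read as a trait of the members. Spp1 with Gpnmb had 1.98 and 1.99, Gpnmb with Fabp5 1.96 and 2.14, and Spp1 with Fabp5 1.40 and 1.43. Trem2 had 1.13 and 1.10 with Spp1, 1.08 and 1.22 with Gpnmb and 1.01 and 0.977 with Hmox1. A ratio cannot exceed 1 over the larger single share, so pairs with widely detected genes such as Trem2 and Lgals3 are held near 1 and are not compared with pairs of rarer genes.

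The uptake genes Lpl and Cd36 formed the pair with the highest ratio in the knockdown, and Gpnmb with Cd36 in the control. Lpl with Cd36 had 3.18 in control and 4.51 in knockdown, from 13 and 19 cells, and Gpnmb with Cd36 had 3.43 and 1.96, from 36 and 31 cells. Gpnmb with Lpl was below 1 in control (0.748, 3 cells) and above it in knockdown (1.52, 9 cells). These few cells carry wide counting error.

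**Figure D4:**
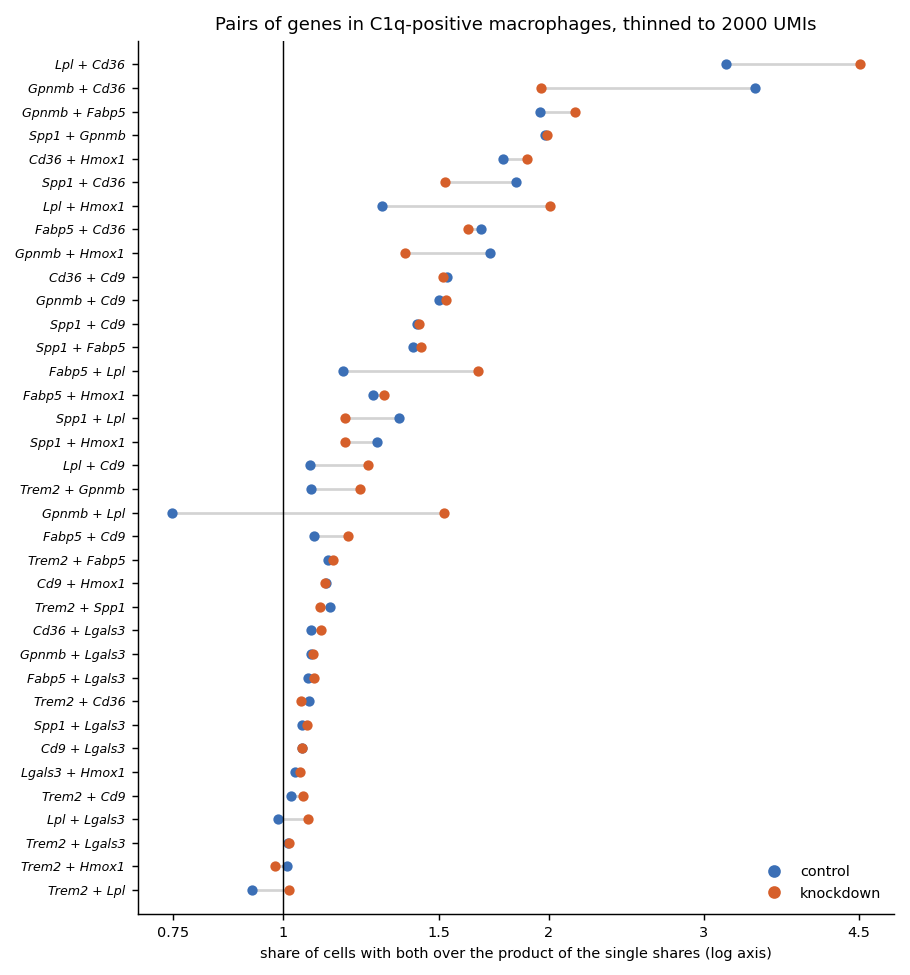
For each of 36 pairs of genes, the share of thinned C1q-positive macrophages with both genes over the product of the single shares (log axis), control in blue and knockdown in orange. Most points lie right of 1, and Lpl with Cd36 lies at 3.18 and 4.51.

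The C1q-positive macrophages were then ordered by how many of Trem2, Spp1 and Gpnmb each cell held, from 0 (1007 control and 1071 knockdown cells) to 3 (98 and 130 cells). The level of Fabp5 went from 242 to 2240 CPM in control and from 247 to 2515 CPM in knockdown. Lgals3 went from 1879 to 4959 CPM and from 1550 to 3842 CPM, and Hmox1 from 290 to 1245 CPM and from 235 to 650 CPM. Cd36 had 16.9 and 24.3 CPM in cells with none and 112 and 123 CPM in cells with all 3.

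Genes outside the set moved along this order as well, in opposite directions. The summed level of 12 inflammatory macrophage genes was 5701 CPM in control cells with none of the 3 genes and 1750 CPM in those with all 3, and 7198 and 3085 CPM in the knockdown. Cxcl9, a chemokine that draws T cells, went from 2059 to 393 CPM and from 3176 to 919 CPM. Summed levels of 12 resident-type genes went from 1916 to 4260 CPM and from 1836 to 4112 CPM, carried largely by the platelet factor gene Pf4 (346 to 1934 and 252 to 1900 CPM). C1qa itself went from 5015 to 5444 CPM in control and from 4725 to 5638 CPM in knockdown.

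**Figure D5:**
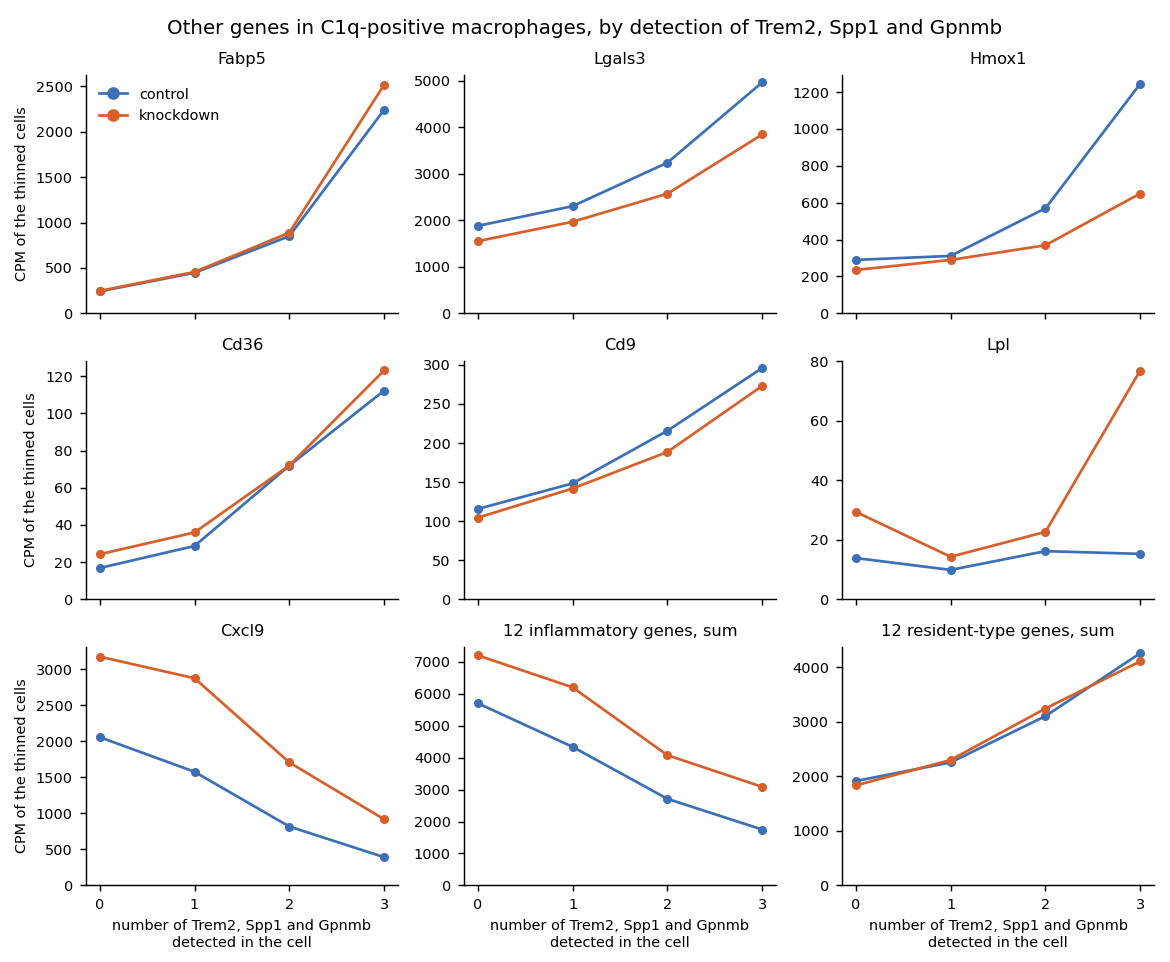
CPM of 7 single genes and 2 summed lists in thinned C1q-positive macrophages (vertical axes from 0) against the number of Trem2, Spp1 and Gpnmb detected in the cell, control in blue and knockdown in orange. Fabp5, Lgals3, Hmox1, Cd36 and Cd9 rise along the axis in both libraries, while Cxcl9 goes down, from 2059 to 393 CPM in control.

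C1q-low cells of the class, which include part of the monocyte-like ones, had other ratios than C1q-positive macrophages for several members. The split does not separate monocytes cleanly. Subcluster 0, whose leading genes include the monocyte markers Ly6c2 and Ccr2, had 343 control and 366 knockdown cells among the thinned C1q-positive macrophages. Hmox1 had 606 and 637 CPM there (ratio 1.05, 0.982 to 1.13) against 401 and 293 CPM in C1q-positive macrophages (0.731, 0.707 to 0.755). Spp1 had 588 and 809 CPM (1.38) against 623 and 643 CPM (1.03), and Cd36 had 53.7 and 89.8 CPM (1.67) against 43.8 and 43.8 CPM (1.0). Gpnmb had 57.3 and 90.8 CPM (1.59, 1.29 to 1.96) against 53.5 and 72.2 CPM (1.35, 1.25 to 1.45). Lpl had a ratio of 1.20 (0.860 to 1.68) against 1.77 (1.54 to 2.03). The Gpnmb and Cd36 ratios were above 1.5 in the C1q-low cells, but both intervals hold 1.5 (Cd36 1.35 to 2.07). What share of all genes passed that fold in these cells was not computed. Trem2 was lower in the knockdown in C1q-low and in C1q-positive cells, with ratios of 0.758 and 0.767. The differences between these ratios were not tested.

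Partner genes of the set were read from 9 lists in the macrophage/monocyte-like class, where a call again needs a fold of 1.5. Of 28 other lipid-associated genes (lysosomal proteases, lipid droplet and efflux genes), 26 met the call minimum, and 0 were higher and 0 lower, with a median log2 ratio of −0.01. Apoe, the main lipoprotein of these cells, had 16548 and 13778 CPM (0.833), the protease gene Ctsl had the lowest ratio (0.779) and the integrin gene Itgax the highest (1.40). The 7 genes of TREM2 signalling also gave 0 calls either way with a median of 0.03. Tyrobp, the adaptor that carries the TREM2 signal, had 2174 and 2214 CPM (1.02, 1.01 to 1.03) beside the lower Trem2, and Hcst and Plcg2 had ratios of 1.10 and 0.883.

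Receptors for SPP1 and GPNMB gave 0 calls of 7, with a median of 0.13. Cd44 had 313 and 397 CPM (1.27), Itga9 a ratio of 0.918, and Itgb3 only 31 UMIs in each library (1.47, 0.867 to 2.51). Lpl partners gave 0 calls of 2, with a median of 0.25. Lrp1 had a ratio of 1.08, and Gpihbp1, which anchors LPL to vessels, had 28 and 34 UMIs (1.79, 1.05 to 3.07). Fatty acid and cholesterol genes gave 0 calls of 4, with a median of 0.12. The nuclear receptor gene Ppard had a ratio of 0.907, Soat1, which esterifies cholesterol, 1.09, and Fabp3, with 33 and 37 UMIs, 1.65.

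The haem, iron and NRF2 list around Hmox1 gave 0 calls of 9, with a median of 0.06. Ferritin heavy chain Fth1 was lower at 0.847, the haemoglobin scavenger Cd163 had 88 and 128 UMIs (2.15, 1.62 to 2.85), and the iron exporter Slc40a1 had 51 and 13 UMIs (0.376, 0.188 to 0.701). Tetraspanins and galectins gave 0 calls of 7, with a median of 0.02. Galectin-1 (Lgals1) had 1491 and 1927 CPM (1.29, 1.28 to 1.31) where Lgals3 was lower, and Lgals8 had 0.958.

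Resident-type genes gave 0 calls of 8, with a median of 0.06, and Pf4 (0.833), Fcrls (0.774) and Lyve1 (1.39) spanned the list. Inflammatory genes gave 2 higher and 0 lower of 10, with a median of 0.43 beside 0.06 over all genes, where 1.0% of all genes that met the minimum were higher. In the same class the summed markers of T cells (ratio 1.47), tumour cells (1.42) and monocytes (1.26) were also higher in the knockdown, and their part in these values was not tested. Cxcl9 had 1449 and 2422 CPM (1.67) and Saa3 29.5 and 81.1 CPM (2.75), the 2 that passed the fold. Saa3 met the call minimum only through the knockdown, where it was high, so its call is no support for the list. Il12b had 56 and 12 UMIs (0.316, 0.154 to 0.596).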

How the data were processed

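Members and gene lists were chosen with earlier results of these data known. The authors deposited raw UMI counts per gene and barcode, made with Cell Ranger 4 per the submitters' processing notes. No source used here gives the build, the annotation or the handling of reads shared between genes. The control library held 177399315 UMIs in 1688458 barcodes and the knockdown library 174190399 in 1769772.

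Barcodes with at least 500 UMIs, at least 250 genes and at most 20% mitochondrial UMIs were kept where their profile differed from empty droplets of at most 100 UMIs (1000 draws, false discovery rate 0.01), a test not needed above 3000 UMIs. Doublets called by Scrublet, 478 (4.17%) and 854 (5.20%), were removed. Cells were clustered with scanpy 1.11.5 (2000 variable genes, 30 principal components, 15 neighbours, Leiden resolution 1). Classes were named from the Xist level, which set tumour-like clusters apart, and then from markers. Counts were summed per class and library. Intervals were exact (Poisson for levels, conditional binomial for ratios, Clopper-Pearson for shares). No p-value was computed, since a group is 1 library. A ratio calculation was tested on simulated data. Genes named were the 9 members, the 3 genes nearest to Trem2, Spp1 and Gpnmb by correlation, and from each list the gene with the highest level and, among genes with at least 50 UMIs, those with the highest and the lowest ratio. Alternatives covered depth, free RNA, weighting, doublets, clustering and TMM scaling (edgeR 4.0.16).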

Additional observations from a re-analysis of the deposited data

How the results depend on the processing

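With 1 library per group no library can be left out, and counting intervals do not cover differences between tumours. No paired analysis was possible because each group holds 1 library. The median log2 ratio of the 9 members in macrophage/monocyte-like cells, −0.05, turned to 0.21 among cells of 4000 to 8000 UMIs. It turned to 0.11 when each subcluster had the same weight, its share of the pooled UMIs, in both libraries. After subtraction of 20% free RNA it was 0.019. It was −0.13 with TMM scaling, which moved the median of all genes from 0.06 to −0.02, and −0.0081 without subclusters 1 and 16. The free RNA setting of 20% and the one without those subclusters were chosen after seeing the data. The log2 ratio of Fabp5 turned to 0.21, 0.11 and 0.019 in the same 3 settings. The number of members at least 1.5 times higher went from 0 to 1, Gpnmb, among cells of 4000 to 8000 UMIs. It was also 1, again Gpnmb, with each subcluster at the same weight in both libraries. The share of C1q-positive macrophages with Trem2, Spp1 and Gpnmb together was 1.03% in control and 1.24% in knockdown at 1000 UMIs, 5.62% and 6.88% at 4000 UMIs, 7.10% and 7.16% without thinning, and 0.575% and 0.719% at 2 or more UMIs of each gene. The causes were not tested.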
